A study of Mus musculus with 14 samples.

Results

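Kidney RNA of transgenic mice on a high salt diet was compared with kidney RNA of the same kind of mice on a normal diet, across all genes, by nephron segment and by function. Members were the 6 kidney libraries of the 14 in the series, 3 per diet, taken from the table of gene counts by the diet their labels name. Every mouse, control or treated, carried a human angiotensinogen gene of haplotype -6A. All were adult males of 12 weeks. The salt content and length of the diet, the genetic background and the number of animals behind each library are not given in the sources used here. Nothing says that replicates came from separate animals, so p-values measure only the spread between these samples, which may be technical. The libraries are called normal diet 1 to 3 and high salt 1 to 3.

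The nephron filters plasma at the glomerulus and then reclaims most of the filtered sodium along a series of segments with different transporters: the proximal tubule, the thick ascending limb, the distal convoluted tubule and the collecting duct. Juxtaglomerular cells at the glomerulus secrete renin, which cuts angiotensinogen on the way to angiotensin II, a peptide that raises blood pressure and drives aldosterone release and sodium retention. Salt loading is known to lower renin and aldosterone, and the late segments are the ones that aldosterone acts on.

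The libraries held 16046094 to 22004927 counts, of which 23.5 to 41.2% lay on the mitochondrial genome (mean 36.1% ± 4.9 with the normal diet and 29.9% ± 6.7 with salt, SD over 3 libraries). Kidney markers were present in all 6. Per kilobase of exon, the normal diet means were 492 CPM (counts per 1000000, library sizes scaled by TMM) for uromodulin, 182 for the phosphate transporter Slc34a1 and 17.8 for the water channel Aqp2. The first principal component carried 53.9% of the variance and did not follow diet. Normal diet 1, high salt 1 and high salt 3 lay on one side of it and the other 3 libraries on the other. The second component carried 15.96% and separated the diets. Its scores were -29.147, -19.634 and -10.028 in normal diet 1 to 3 and 13.504, 5.755 and 39.55 in high salt 1 to 3. On the first component normal diet 1 was the most distant, with a score of -72.0 where the others ranged from -25.1 to 45.0. Its 89 cytoplasmic ribosomal protein genes summed to 5587 CPM, against 18817 and 18071 in the other normal diet libraries and 7814, 14753 and 8171 in high salt 1 to 3. Genes with over 5000 bases of exon took 33.3% of its nuclear CPM, against 24.5 to 30.1% in the other 5. The median of most gene lists below is therefore followed by its lowest and highest value when each library in turn was left out. The part of these library differences in the diet comparison was not tested.

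**Figure D1:**
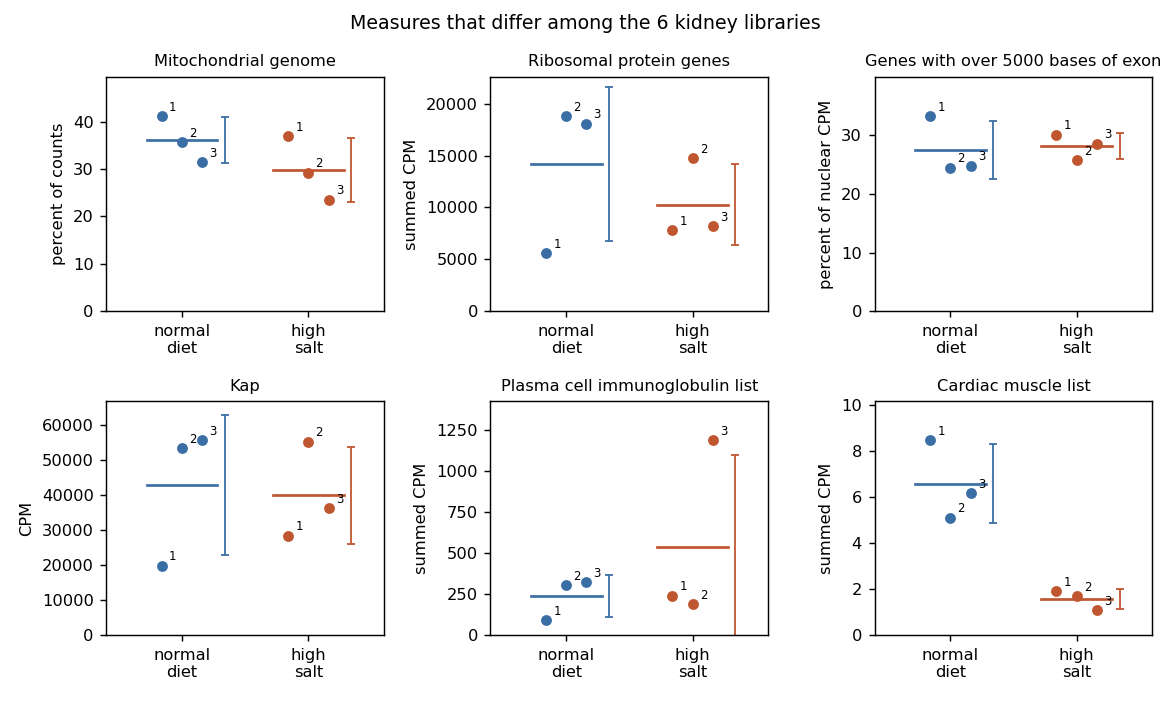
Each panel plots 1 measure in the 6 kidney libraries, with the library number beside each point, a line at the diet mean and a bar of 1 SD (n = 3); the y axes start at 0, and the bar of the plasma cell list on high salt runs below 0 and is not drawn there. Normal diet 1 is lowest for ribosomal protein genes (5587 CPM) and Kap, and the cardiac muscle list is the one measure here in which the diets do not overlap (5.09 to 8.44 CPM on normal diet, 1.09 to 1.92 on high salt).

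No gene passed edgeR's quasi-likelihood test after Benjamini-Hochberg adjustment: 0 of 15847 genes tested, 0.0%, with a smallest adjusted p of 0.99965. At an unadjusted p under 0.05 there were 318 genes, 2.01%, of which 202 were higher on high salt (1.27%) and 116 lower (0.732%). DESeq2 called 13 of 20195 genes (0.0644%), 7 higher and 6 lower, with 451 at an unadjusted p under 0.05. The diets did not overlap, every library of one diet lying above every library of the other, in 1097 genes (6.92%), 610 higher on high salt (3.85%) and 487 lower (3.07%). The median log2 difference of all genes, high salt minus normal diet, was -0.02, and 46.3% of genes had a fitted value above 0.

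These data bound most differences rather than resolve them. The median standard error of a log2 difference was 0.30, and the 95% interval lay wholly inside a 2-fold change either way for 9461 genes, 59.7%. Leaving out normal diet 1 gave 16146 genes tested and 0 adjusted calls by edgeR, but with a smallest adjusted p of 0.0533, just over the threshold. It also gave 1212 genes higher (7.51%) and 1415 lower (8.76%) at an unadjusted p under 0.05. The share with a value above 0 went to 51.5%. Below, a difference is the fitted log2 difference, high salt minus normal diet, with a 95% interval or standard error (SE) derived from edgeR's F test. The words "higher" or "lower" describe values that did not pass the adjusted test. Fewer cells of a type and less RNA per cell cannot be told apart in these bulk samples.

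Renin was the member of the glomerular lists that stood lowest on high salt. Ren1, made by the juxtaglomerular cells, lies on the plus strand of chromosome 1 at 133350510 to 133360325 (mm10). Its RefSeq promoter window is shown because renin begins the hormone cascade that salt intake acts on. The window (GRCm38.p6, chr1:133350424-133350723, plus strand) holds the letters TATAAA, in capitals, with the first base 29 bases before the RefSeq start of the gene at 133350674, which lies downstream of the start in the deposited table; 13.6% of 32851 RefSeq promoter windows of this length hold TATAAA on either strand.
Ren1 promoter: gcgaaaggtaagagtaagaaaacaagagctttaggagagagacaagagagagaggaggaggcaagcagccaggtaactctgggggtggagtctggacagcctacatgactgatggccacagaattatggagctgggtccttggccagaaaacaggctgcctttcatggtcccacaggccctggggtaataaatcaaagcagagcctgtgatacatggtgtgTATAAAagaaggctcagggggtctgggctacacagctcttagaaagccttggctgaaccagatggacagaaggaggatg

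Ren1 measured 20.6, 27.7 and 27.4 CPM in normal diet 1 to 3 and 12.5, 16.9 and 14.8 CPM in high salt 1 to 3. All 3 high salt libraries lay below all 3 normal diet libraries, with means of 25.3 ± 4.0 and 14.7 ± 2.2 CPM (SD, n = 3 each). The log2 difference was -0.78 (95% interval -1.26 to -0.30, edgeR unadjusted p = 0.0057, adjusted p = 0.99965). The sign and an unadjusted p under 0.05 held in all 18 alternative analyses, with differences from -0.94 to -0.65. These alternatives, here and below, reuse the same libraries, so holding in them is not independent support. In an exact two-sided permutation test over the 6 libraries p was 0.1, the smallest that 3 against 3 allow, and 0.4 after adjustment over the 4 renin-angiotensin genes tested this way. Some mouse strains carry a near-identical second renin gene, and with the background not given its reads could not be told from those of Ren1.

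The other 7 juxtaglomerular and mesangial genes showed no such separation. Itga8, the mesangial integrin, measured 11.9 to 20.9 CPM on normal diet and 15.96 to 21.6 on high salt. Pdgfrb, the growth factor receptor of mesangial cells and pericytes, measured 10.95 to 15.5 and 10.2 to 12.5 CPM. Of all 8 listed genes 6 were higher in value, with a median difference of 0.09 against -0.02 over all genes, and Ren1 was the only one whose diets did not overlap. Leaving out 1 library gave medians from -0.08 (without high salt 3) to 0.19 (without normal diet 3). In the podocyte list 13 of 14 genes were tested, 9 were higher in value, the median was 0.08 and none separated the diets. Without normal diet 1 the median was 0.00, the lowest of these leave-outs, with 6 of 13 genes higher, and without normal diet 3 it was 0.12. Podxl, podocalyxin of the podocyte surface, measured 64.998, 61.1 and 52.9 CPM on normal diet and 74.003, 63.7 and 74.8 on high salt, overlapping through high salt 2 (0.25, -0.18 to 0.68). Nphs1, nephrin, was at 10.3 CPM in normal diet 1 and at 54.2 and 58.5 in normal diet 2 and 3, with high salt values of 19.8 to 38.9 between them. Its difference was -0.62 with normal diet 1 and -1.08 without it (edgeR unadjusted p = 0.0030, adjusted p = 0.20).

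**Figure D2:**
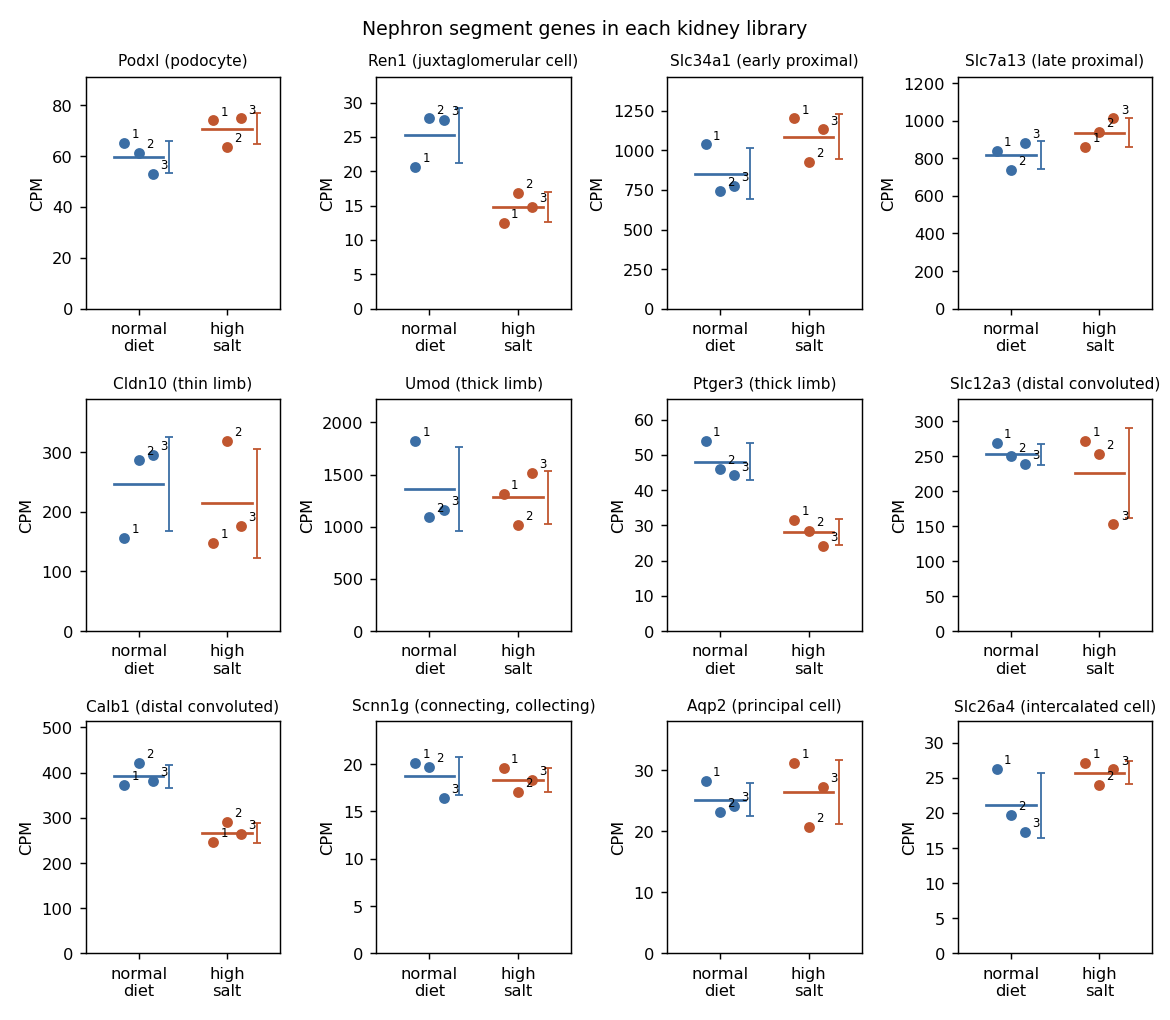
CPM of 12 genes that mark nephron segments, in normal diet (blue) and high salt (red) kidney libraries, with the library number beside each point, a line at the diet mean and a bar of 1 SD (n = 3); every y axis starts at 0. Ren1, Ptger3 and Calb1 are the 3 panels in which all high salt points lie below all normal diet points.

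In the proximal tubule, transporters of both the early and the late part were spread around 0. All 30 early (S1 and S2) genes were tested, 15 were higher and 15 lower in value, the median difference was 0.00, and the range ran from -0.72 to 0.39. Slc34a1, the sodium-phosphate cotransporter, measured 1038, 745 and 778 CPM on normal diet and 1202, 927 and 1133 on high salt. Its difference of 0.35 (-0.19 to 0.89) left the diets overlapping through normal diet 1. Slc9a3, the sodium-hydrogen exchanger NHE3, differed by -0.09 (-0.60 to 0.42), and Slc5a2, the glucose transporter SGLT2, by -0.19 (-0.66 to 0.28). Lrp2, the endocytic receptor megalin, was at 1507 CPM in normal diet 1 and at 677 to 1021 CPM in the other 5 libraries.

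Both early proximal genes that separated the diets were lower on high salt, where 3.07% of all genes separated them downward. Cyp24a1, the enzyme that inactivates vitamin D, measured 33.9, 47.5 and 26.6 CPM on normal diet and 19.5, 24.8 and 21.5 on high salt. Its difference was -0.72 (SE 0.25, edgeR unadjusted p = 0.019). Slc7a7, a basolateral carrier of cationic amino acids, measured 58.3 to 63.7 CPM on normal diet and 45.6 to 54.1 on high salt, a difference of -0.32 (-0.73 to 0.09). Without normal diet 1 the early list had 19 of 30 genes higher and a median of 0.12, with 11 genes separating the diets upward and 5 downward. Without normal diet 3 the median was -0.07. The background without normal diet 1 was 19.1% of all genes upward and 18.6% downward.

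In the late proximal (S3) list 7 of 14 genes were higher in value, with a median of 0.00. Slc27a2, a fatty acid transport protein and acyl-CoA synthetase, was the one that separated the diets, at 2849.7, 2624 and 2786 CPM on normal diet and 3378, 3048 and 3524 on high salt (0.27, -0.21 to 0.74). Slc7a13, the S3 amino acid transporter, overlapped at 736 to 881 and 858 to 1012 CPM. Kap, the androgen-regulated protein that is among the most abundant transcripts of the male mouse kidney, followed the sides of the first component and not diet. It stood at 19940.0 CPM in normal diet 1, 28501 in high salt 1 and 36328 in high salt 3, and at 53463, 55673 and 55371 CPM in normal diet 2, normal diet 3 and high salt 2. Slc22a7, an organic anion transporter, changed sign with normal diet 1, from -0.23 with it to 0.70 without it. Without that library 12 of the 14 late genes were higher in value and the median was 0.27, and without normal diet 2 it was -0.02.

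The thin limb list gave 7 of 12 tested genes higher in value, a median of 0.06 and none that separated the diets. The median was -0.03 without normal diet 2, 0.20 without high salt 2, and 0.19 with 10 of 13 genes higher without normal diet 1. Slc14a2, the urea transporter of the inner medulla, measured 9.34, 2.40 and 6.25 CPM on normal diet and 9.83, 7.06 and 11.5 on high salt. The difference of 0.66 had an interval from -0.36 to 1.67, and was 1.12 without normal diet 1 (edgeR unadjusted p = 0.014, adjusted p = 0.25). Cldn10, a tight junction claudin, differed by -0.20 (-1.04 to 0.64).

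In the thick ascending limb 17 of 18 tested genes were lower in value on high salt, and the prostaglandin receptor Ptger3 was the lowest of them. The list's median was -0.16 against -0.02 over all genes, and 15 of the 18 intervals lay inside a 2-fold change. Without normal diet 1, however, 8 of the 18 were higher and the median was -0.04, and without normal diet 2 the median was -0.29. Ptger3 encodes EP3, the prostaglandin E2 receptor that restrains salt transport and cAMP signalling in this segment. It measured 54.0, 46.1 and 44.2 CPM on normal diet and 31.6, 28.4 and 24.1 on high salt, without overlap, a difference of -0.78 (-1.22 to -0.34, edgeR unadjusted p = 0.0035). Its sign and an unadjusted p under 0.05 held in all 18 alternatives, from -0.87 to -0.68.

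The salt transport machinery of the same cells differed less. Slc12a1, the sodium-potassium-chloride cotransporter NKCC2 that loop diuretics block, measured 704, 497 and 586 CPM on normal diet and 613, 450 and 538 on high salt. The diets overlapped, with a difference of -0.16 (-0.69 to 0.37) that was -0.02 without normal diet 1. Kcnj1, the potassium channel ROMK that recycles potassium to NKCC2, measured 269, 240 and 248 CPM on normal diet and 208, 226 and 171 on high salt. All its high salt values lay below the normal diet values, at -0.32 (-0.79 to 0.14). Sostdc1, a secreted BMP and Wnt antagonist, was also apart, at 50.8 to 57.9 and 37.7 to 49.1 CPM (-0.39, -0.83 to 0.04). Umod, uromodulin, measured 1824, 1098 and 1159 CPM on normal diet and 1313, 1014 and 1518 on high salt, and its sign reversed from -0.09 to 0.18 without normal diet 1.

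The macula densa, the sensor plaque at the end of the thick limb, had defining genes at few counts. Its neuronal nitric oxide synthase Nos1 had 21, 8 and 5 counts on normal diet and 6, 0 and 12 on high salt, and was not tested. Ptgs2, cyclooxygenase 2, ran from 0.29 to 1.65 CPM on normal diet and from 0.25 to 0.77 CPM on high salt. Pappa2, a protease of insulin-like growth factor binding proteins, was under 0.66 CPM in every library. The intervals of Ptgs2 (-2.16 to 1.19) and Pappa2 (-1.72 to 1.48) each ran past a 2-fold change in both directions. The other 3 listed genes had more counts and overlapped between the diets: the vasopressin receptor Avpr1a differed by -0.39 (-1.09 to 0.31), the guidance receptor Robo2 by -0.09 (-0.86 to 0.68) and the prostaglandin E synthase Ptges by 0.27 (-0.51 to 1.05). Of 5 tested genes 4 were lower in value, with a median of -0.12 that ran from -0.35 without high salt 1 to 0.04 without high salt 3.

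In the distal convoluted tubule 18 of 21 genes were lower in value on high salt, with a median of -0.23, and the summed level of the list separated the diets. The sum was 2841, 2854 and 2576 CPM on normal diet and 2471, 2316 and 1937 on high salt, so every high salt library lay below every normal diet library. Calb1, calbindin, the cytosolic calcium carrier of the late distal and connecting tubule, was 1 of 3 members that separated the diets by themselves. All 3 did so downward, where 3.07% of all genes did. The separation of the summed level rested on Calb1: with Calb1 taken out of the sum, high salt 1 lay above normal diet 3. Calb1 measured 374, 421 and 382 CPM on normal diet and 246, 291 and 264 on high salt, with means of 392 ± 25 and 267 ± 22 CPM (SD, n = 3 each). The difference was -0.55 (-1.001 to -0.11, edgeR unadjusted p = 0.021), it ranged from -0.62 to -0.50 over the 18 alternatives, and an unadjusted p under 0.05 held in 14 of them.

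Pvalb, parvalbumin, a calcium buffer of the early distal convoluted tubule, measured 46.0, 20.7 and 22.3 CPM on normal diet and 13.3, 18.8 and 15 on high salt. The diets did not overlap, but the difference of -0.92 (-1.68 to -0.16) was -0.46 without normal diet 1. Stk39, the kinase SPAK that phosphorylates the sodium-chloride cotransporter, was the third gene apart, at 21.3 to 24.8 and 17.1 to 19.9 CPM (-0.33, -0.73 to 0.07). The cotransporter itself, Slc12a3, which thiazides block, measured 269, 250 and 240 CPM on normal diet and 272, 254 and 152 on high salt. High salt 1 and 2 lay within or above the normal diet range and high salt 3 below it, and the interval was -0.75 to 0.43. Its regulator Wnk4 differed by -0.12 (-0.73 to 0.49), with the opposite sign, 0.12, without normal diet 1. The magnesium channel Trpm6 differed by -0.43 (-1.16 to 0.31) and by -0.11 without that library. Without normal diet 1 the list had 9 of 21 genes higher and a median of -0.02, and Calb1 stood at -0.59. Without high salt 1 the median was -0.34.

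In the connecting tubule and principal cells, where aldosterone acts, the sodium channel subunits differed in sign. Scnn1a, the alpha subunit of the epithelial sodium channel ENaC, measured 55.1, 28.9 and 23.4 CPM on normal diet and 27.5, 18.8 and 23.9 on high salt. Normal diet 1 was the high value, and the difference of -0.61 (-1.38 to 0.15) was -0.16 without it. The beta subunit Scnn1b differed by 0.12 (-0.40 to 0.64) and the gamma subunit Scnn1g by -0.03 (-0.45 to 0.38). Aqp2, the vasopressin-regulated water channel, measured 23.2 to 28.3 and 20.8 to 31.2 CPM, a difference of 0.07 (-0.41 to 0.54). Klk1, tissue kallikrein, differed by 0.03 (-0.56 to 0.62).

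Of the 23 genes of this list 15 were higher in value, with a median of 0.08, and without normal diet 1 there were 17, with a median of 0.24. The lean turned without high salt 1, with 9 of 23 higher and a median of -0.03, without normal diet 3, with 10 of 23 and -0.01, and with the side of the first component as a term, with 8 of 23 and -0.06. The gene apart on the lower side was Kcnma1, the pore subunit of the flow-activated BK potassium channel. It measured 2.30, 1.41 and 1.65 CPM on normal diet and 0.98, 0.63 and 0.59 on high salt, from a mean of only 25 counts a library. The difference was -1.27 (-2.17 to -0.37, edgeR unadjusted p = 0.012). An unadjusted p under 0.05 held in all 18 alternatives, which reuse the libraries in which it stood out. Fxyd4, the sodium pump regulator of the collecting duct, was apart on the higher side, at 3.75 to 5.39 and 5.94 to 6.36 CPM (0.42, -0.10 to 0.94).

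Among intercalated cell genes 8 of 21 tested were higher in value, the median was -0.07 and none separated the diets. Without normal diet 1 this turned to 15 of 21 higher and a median of 0.17. With that library left out 5 genes were apart upward and 4 downward, against 19.1% and 18.6% of all genes. Without normal diet 2 the median was -0.19. Slc26a4, the chloride-bicarbonate exchanger pendrin, measured 26.2, 19.7 and 17.2 CPM on normal diet and 27.1, 23.9 and 26.2 on high salt. Its difference was 0.29 (-0.19 to 0.77), and 0.48 without normal diet 1 (edgeR unadjusted p = 0.020, adjusted p = 0.25). Atp6v1b1, a subunit of the proton pump, measured 37.9 CPM in normal diet 1, 29.4 in high salt 1 and 15.9 to 18.4 in the other 4 libraries, so it did not follow diet. Slc4a1, the anion exchanger shared with red cells, differed by 0.07 with normal diet 1 and by 0.68 without it. The inner medulla and papilla list gave 6 of 8 tested genes higher, with a median of 0.13, and 0.16 to 0.43 with 1 library left out (normal diet 1 and normal diet 3). Upk3a, a urothelial plaque protein, had 0, 3 and 5 counts on normal diet and 29, 3 and 1 on high salt, so 1 library held most of its counts. Upk1b and Upk2, also too low to test, were apart on the higher side. Upk1b measured 0, 0 and 0.19 CPM on normal diet and 3.17, 0.38 and 0.45 on high salt. Upk2 measured 0, 0.059 and 0.048 CPM and 0.36, 0.25 and 0.23 CPM. Psca and Krt5, likewise not tested, overlapped.

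**Figure D3:**
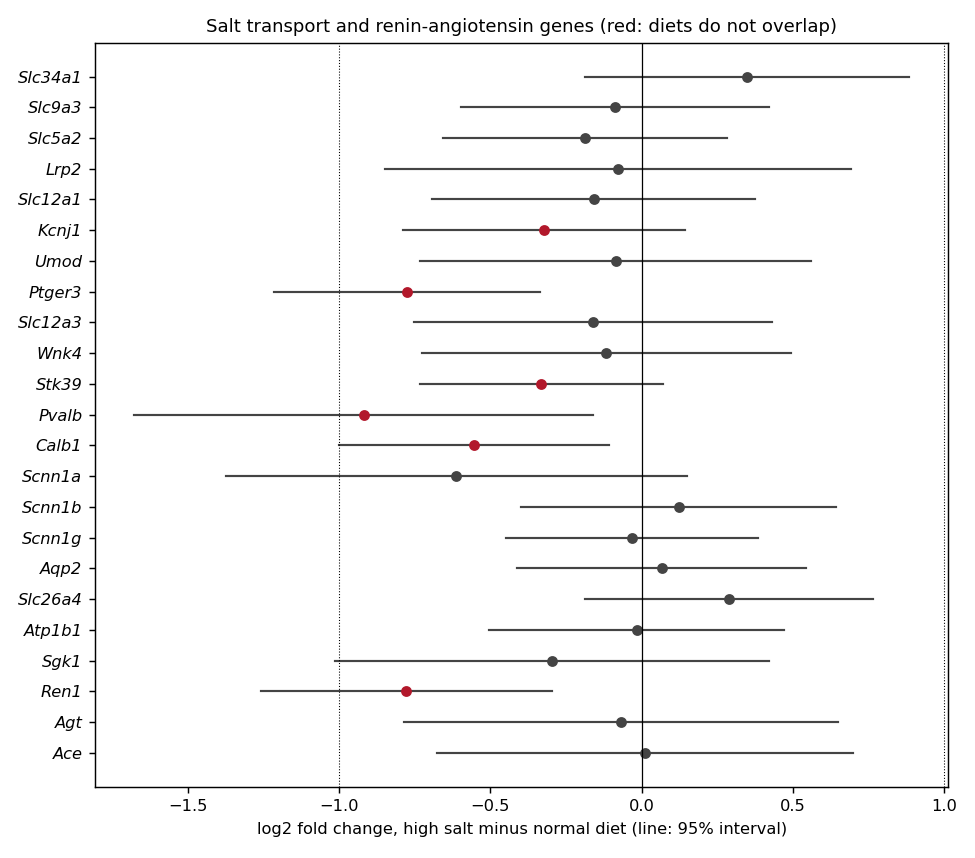
Fitted log2 difference, high salt minus normal diet, of 23 salt transport and renin-angiotensin genes, as points with 95% intervals derived from edgeR's F test. Dotted lines mark a 2-fold change and red points genes whose diets do not overlap. Ren1 (-0.78), Ptger3 (-0.78), Pvalb (-0.92) and Calb1 (-0.55) have intervals wholly below 0, and the intervals of the other 19 genes include 0.

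Within the renin-angiotensin system Ren1 was the only tested gene whose diets did not overlap. Mouse Agt, the angiotensinogen of the animal itself, measured 27.2, 18.1 and 14.2 CPM on normal diet and 16.4, 14.4 and 25.8 on high salt, and the human transgene was not analysed here. Ace, which converts angiotensin I to II, measured 166, 88.4 and 81.9 CPM and 126.35, 112 and 99.6 CPM. For both genes the diets overlapped. Their differences in mean were -0.94 and 0.79 CPM, with exact two-sided permutation p of 0.8 and 1.0, each 1.0 after adjustment over the 4 genes. On the log2 scale the intervals were -0.79 to 0.65 and -0.68 to 0.70. Of 12 tested genes of the system 4 were higher in value, and 10 intervals lay inside a 2-fold change. The median was -0.07, with -0.12 without normal diet 3, and without normal diet 1 it turned to 0.09 with 7 of 12 higher. Ace went from 0.01 to 0.41 without that library (edgeR unadjusted p = 0.058).

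The sodium pump showed 5 of 10 genes higher in value and a median of 0.08, with 0.00 without high salt 3 and 0.23 without normal diet 2. Its beta subunit Atp1b1 differed by -0.02 (-0.50 to 0.47), with the diets overlapping. Fxyd2, the gamma subunit, measured 664 CPM in normal diet 1, 777 in high salt 1 and 832 in high salt 3, against 1151, 1352 and 1302 in normal diet 2, normal diet 3 and high salt 2, the same sides as on the first component.

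Corticosteroid response genes gave 3 of 13 higher in value, a median of -0.12 and none that separated the diets. The list turned to 7 of 13 higher and a median of 0.02 without normal diet 1. With that library left out 2 genes were apart upward and 3 downward, against 19.1% and 18.6% of all genes. Without high salt 3 the median was -0.23. Sgk1, the aldosterone-induced kinase that keeps ENaC at the membrane, measured 24.9, 53.1 and 58.3 CPM on normal diet and 38.5, 32.6 and 39.8 on high salt. Normal diet 1 lay below every high salt library and normal diet 2 and 3 above them all. The difference was -0.30 (-1.01 to 0.42) with normal diet 1 and -0.59 without it. Tsc22d3, the glucocorticoid-induced leucine zipper, had the same shape, at 18.1, 44.4 and 64 CPM and 25.1, 27.6 and 33.5 CPM. It differed by -0.55 with that library and by -0.92 without it. Fkbp5, a glucocorticoid receptor chaperone, went the other way, 0.26 with it and 0.78 without it. For Sgk1, Tsc22d3 and Fkbp5 edgeR adjusted p without normal diet 1 stayed over the threshold of 0.05.

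Osmolyte genes gave 5 of 11 higher in value and a median of -0.13, which turned to 7 of 12 and 0.20 without normal diet 1 and was -0.16 without normal diet 2. Akr1b3, the aldose reductase that makes sorbitol, measured 10.9, 11.2 and 16.2 CPM on normal diet and 17.5, 20.2 and 14.3 on high salt (0.44, -0.11 to 0.98). Slc5a3, the inositol transporter, and Nfat5, the tonicity-responsive transcription factor, differed by 0.03 and -0.13 with the diets overlapping. The heat shock genes Hspa1a and Hspa1b, near-identical neighbours whose reads the counting may split, rested on 1 library. Hspa1b measured 69.3 CPM in normal diet 3 and 5.396 to 14.6 CPM in the other 5.

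In the endothelin, nitric oxide, prostaglandin and kallikrein list 13 of 20 tested genes were higher in value, with a median of 0.14, and with 0.00 without high salt 1 and 0.21 without high salt 2. Ptger4, the prostaglandin receptor EP4, measured 2.90, 5.74 and 6.10 CPM on normal diet and 2.32, 3.40 and 2.82 on high salt, overlapping through normal diet 1 (-0.79, -1.57 to -0.01). Of the other prostaglandin E2 receptors, Ptger1 was higher in value (0.42, -0.21 to 1.04) and Ptger2, with a mean of 5 counts, was not tested. Ephx2, the epoxide hydrolase that clears vasodilator lipids, was apart on the higher side, at 219 to 281 and 288 to 383 CPM (0.46, -0.04 to 0.96). Cyp4a14, a fatty acid hydroxylase, stood at 70.4 CPM in high salt 3 and at 2.498 to 8.49 CPM in the other 5. Edn1, endothelin, was at 0.50 to 1.69 CPM, and its interval ran from -1.55 to 0.50.

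Injury, oxidative stress, immediate early and clock genes did not separate the diets as groups. Of 19 injury and fibrosis genes 12 were higher in value (median 0.06, from -0.06 without high salt 3 to 0.17 without high salt 2). Havcr1, the tubular injury marker KIM-1, measured 1.65, 20.965 and 33.3 CPM on normal diet and 6.88, 3.34 and 16.8 on high salt. Its lowest and highest values were both in the normal diet group. Krt8, an epithelial keratin, measured 18.7, 13.4 and 11.9 CPM and 22.8, 17.7 and 28.7 CPM (0.65, 0.06 to 1.25), with high salt 2 just below normal diet 1. Lcn2, NGAL, was under 1.7 CPM in all 6 libraries. Spp1, osteopontin, differed by 0.00 (-0.56 to 0.56), and Vcam1, a leukocyte adhesion molecule, by 0.08 (-0.79 to 0.95).

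Of 22 oxidative stress genes 14 were higher in value (median 0.07, from 0.01 without high salt 3 to 0.14 without high salt 1). Nox4, the NADPH oxidase of the tubule, measured 261, 586 and 476 CPM on normal diet and 327, 296 and 300 on high salt. Normal diet 1 again lay below every high salt library, with -0.52 (-1.22 to 0.18) with it and -0.79 without it. Srxn1, sulfiredoxin, was the one gene apart, at 24.5 to 29.3 and 30.2 to 36.1 CPM (0.31, -0.09 to 0.72). Cybb, the phagocyte oxidase, and Sod1, superoxide dismutase, overlapped.

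Of 13 immediate early genes 7 were higher in value (median 0.09), which turned to 4 of 13 and -0.08 without normal diet 1 and was 0.35 without normal diet 3. Klf4, a transcription factor, was apart at 5.15 to 6.44 and 6.87 to 8.05 CPM. Egr1 and Fos differed by 0.55 and 1.08 and Jun by -0.22, with intervals that include 0. Of 19 clock genes 6 were higher (median -0.19, from -0.29 without high salt 1 to 0.00 without high salt 2). Ciart, a repressor of the clock, was apart at 1.07 to 1.93 and 2.14 to 3.04 CPM (0.87, 0.09 to 1.66), Arntl, its activator, differed by -0.89 (-1.89 to 0.11), Dbp by 0.50 and Per2 by -0.35. The hour at which tissue was taken is not given in the sources used here.

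**Figure D4:**
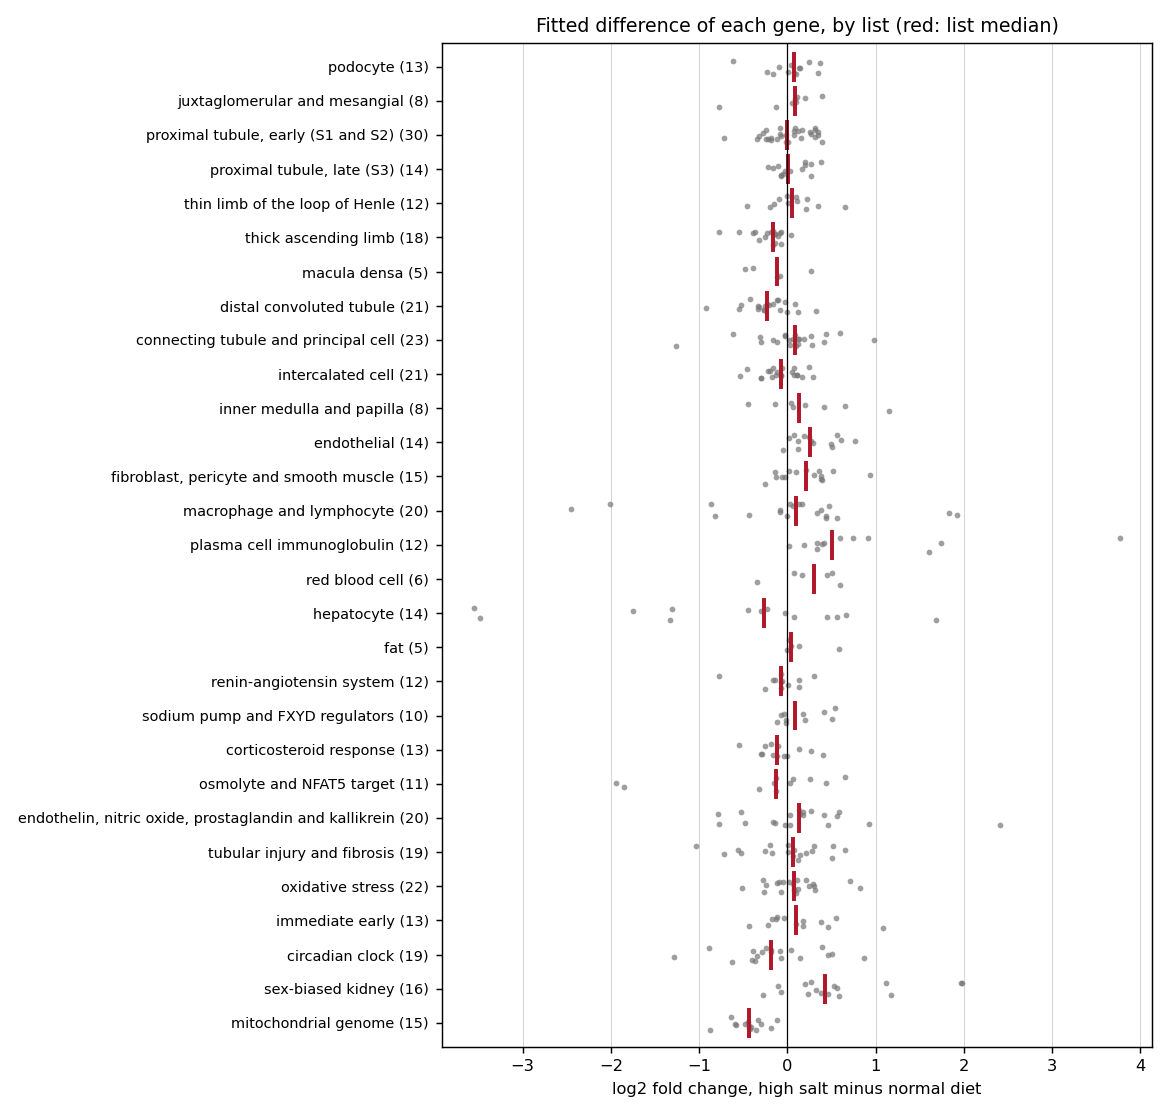
Fitted log2 difference, high salt minus normal diet, of every tested gene in the lists with at least 5 tested genes (gray points, number tested in parentheses), with the list median as a red bar. Most medians lie within 0.3 of 0, the thick ascending limb and distal convoluted tubule points lie mostly below 0, and endothelial points lie mostly above it.

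Endothelial genes leaned the other way from the distal tubule. Of 14 genes 13 were higher in value on high salt, the median was 0.26, and 4 separated the diets upward, where 3.85% of all genes did. Without normal diet 1, 10 of 14 were higher and the median was 0.31, and over all 6 leave-outs it ran from 0.18 (high salt 1) to 0.39 (high salt 2). Plvap, the diaphragm protein of fenestrated endothelium, measured 18.7, 18.8 and 18.7 CPM on normal diet and 28.9, 22.5 and 34 on high salt. The normal diet values were nearly equal and all lay below high salt 2, the lowest of its diet, with a difference of 0.60 (0.14 to 1.07, edgeR unadjusted p = 0.017). Cdh5, the endothelial cadherin, measured 12.5, 10.7 and 10.2 CPM and 16.2, 13.2 and 17.7 CPM (0.50, 0.04 to 0.96). Tie1, a receptor kinase of the same cells, measured 4.10 to 5.91 and 6.05 to 7.64 CPM (0.50, -0.04 to 1.03). Nos3, the endothelial nitric oxide synthase, overlapped at 0.48 to 1.599 and 0.82 to 2.05 CPM. Emcn, endomucin, differed by 0.01 (-0.65 to 0.68), and Pecam1, the junction protein, by 0.27 (-0.15 to 0.69). The list's summed level was 240, 307 and 309 CPM on normal diet and 335, 309 and 329 on high salt, so high salt 2 lay at the normal diet level.

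Stromal genes gave 10 of 15 higher in value and a median of 0.21, with none apart, and with a median of 0.00 without high salt 1 and 0.25 without high salt 2. Col1a1, fibrillar collagen, measured 5.33 to 7.84 and 5.61 to 11.9 CPM, Pdgfra differed by 0.02 (-0.36 to 0.40), and Acta2, smooth muscle actin, by 0.21 (-0.35 to 0.77). In the macrophage and lymphocyte list 12 of 20 were higher in value (median 0.09). This turned to 4 of 20 and -0.21 without high salt 3 and to 10 of 20 and -0.04 without normal diet 1, and the median was 0.30 without high salt 2. The leukocyte gene Ptprc differed by -0.08 and the macrophage gene Cd68 by 0.02, with the diets overlapping. S100a9, the neutrophil alarmin, measured 1.35, 3.51 and 9.63 CPM on normal diet and 1.03, 1.13 and 0.50 on high salt, without overlap (-2.45, -4.07 to -0.84, edgeR unadjusted p = 0.0080), and normal diet 3 held most of its counts. Nkg7, a cytotoxic granule gene, had 3, 7 and 0 counts on normal diet and 15, 14 and 12 on high salt.

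Plasma cell immunoglobulin genes were all higher in fitted value, 12 of 12 with a median of 0.51, yet none separated the diets. The list summed to 91.5, 307 and 325 CPM on normal diet and 243, 191 and 1188 on high salt. High salt 3 was the high library and normal diet 1 the low one, and without normal diet 1 the list had 7 of 12 higher and a median of 0.09. Without high salt 3 the direction turned, with 4 of 12 higher and a median of -0.19, and without normal diet 3 the median was 0.97. Ighm, the IgM heavy chain, measured 306 CPM in high salt 3 and 2.75 to 31.6 CPM in the other 5. Igkc, the kappa light chain, measured 465 CPM in high salt 3 and 3.10 CPM in normal diet 1. Of the hemoglobin genes, the alpha chains separated the diets. Hba-a2 measured 95.2, 145 and 123 CPM on normal diet and 173, 198 and 178 on high salt (0.60, 0.09 to 1.11), and its near copy Hba-a1, whose reads may be shared, was also apart. The beta chain Hbb-bs followed the first component instead, at 202 to 1250.0 and 433 to 981 CPM. Of 6 red cell genes 5 were higher in value, with a median of 0.30, and 0.33 without normal diet 3 to 0.61 without normal diet 2.

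Genes listed as hepatocyte markers did not share a direction. Of 14 tested 5 were higher in value (median -0.27), and the median was -0.75 without normal diet 1 and 0.22, with 9 of 14 higher, without normal diet 2. The summed level was higher on high salt, at 1352, 1060.0 and 885 CPM on normal diet and 1681, 1482 and 1539 on high salt without overlap, and most of it was Cyp2e1, an ethanol-metabolising cytochrome P450 that the kidney also makes. Cyp2e1 (0.56) and Hrg (1.68), both given below, separated the diets upward, and Fgb, a fibrinogen chain, downward (-1.75, -3.40 to -0.10). Alb, albumin, measured 2.70, 35.7 and 10.9 CPM on normal diet and 9.96, 4.79 and 5.0 on high salt, and normal diet 2 also held the most Cyp3a11 (16.1 CPM, others 0.20 to 2.90) and Mup3 (28.4 CPM, others 0.05 to 4.02). The major urinary protein genes Mup7, Mup20 and Mup22, of a family whose copies may share reads, were also highest in normal diet 2, at 24.0, 43.9 and 20.8 CPM. Their differences were -5.57, -4.84 and -4.62 (edgeR unadjusted p = 0.0065, 0.013 and 0.0092). Mup7 and Mup22 did not overlap between the diets, but normal diet 1 stood at 0.55 and 0.85 CPM and high salt 1 at 0.54 and 0.63. Fat markers gave 4 of 5 tested genes higher (median 0.04, from -0.78 without high salt 1 to 1.71 without normal diet 2), and Adipoq ran from 0.36 to 5.15 CPM without regard to diet. Of 11 adrenal genes 1 was in the table, Star, at 1.36 to 2.90 and 1.26 to 1.79 CPM. Of 10 skeletal muscle genes 3 were in the table and none was tested, with sums of at most 0.97 CPM.

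Cardiac muscle transcripts separated the diets at a very low level. The 9 listed genes in the table summed to 8.44, 5.09 and 6.15 CPM on normal diet and 1.92, 1.70 and 1.09 on high salt, and the diets did not overlap. Myh6, the atrial myosin heavy chain, had 35, 28 and 39 counts on normal diet and 8, 2 and 4 on high salt. Myl2, the ventricular light chain, had 50, 16 and 16 counts and 4, 1 and 0 counts. Both are DESeq2 calls, with adjusted p of 0.0090 and 0.042, and edgeR gave them -2.91 and -3.99 with unadjusted p of 0.00022 and 0.0018. Both passed edgeR's filter on low counts only through their normal diet libraries, so their edgeR direction and p depend in part on that filter. Actc1 and Tnnt2, sarcomere genes too low to test, were apart as well: Actc1 had 18, 6 and 8 counts on normal diet and 2, 2 and 0 on high salt, and Tnnt2 had 16, 5 and 17 counts and 3, 4 and 2 counts. Tnni3, Myl3 and Mybpc3, also too low to test, did not overlap either. Not every listed gene was apart: Ryr2, which was tested, overlapped (-0.36, -1.36 to 0.65). Myl7, too low to test, overlapped too, with its highest value in high salt 2 (0.50 CPM). Whether these transcripts came from the kidney or from other tissue was not tested.

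The 15 genes of the mitochondrial genome were all lower in value on high salt, with a median of -0.44. It was -0.19 without high salt 3 and -0.29 without normal diet 1, with 1 of 15 higher in each case, and -0.67 without high salt 1. One of them, the oxidase subunit mt-Co1, separated the diets, at 84932, 91356 and 72133 CPM on normal diet and 67884, 59995 and 36907 on high salt (-0.59, -1.28 to 0.10). mt-Nd1 and mt-Atp6 overlapped, at -0.34 and -0.36. Their summed level was lowest in high salt 3, at 187940 CPM, and highest in normal diet 1, at 431020 CPM.

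A list of genes whose kidney level differs between the sexes, holding both male-biased and female-biased members, had 13 of 16 higher in value and a median of 0.42, the same count and 0.50 without normal diet 1, and medians of 0.34 (without high salt 3) to 0.51 (without high salt 1) over the leave-outs. Of the 16 genes 4 separated the diets upward, where 3.85% of all genes did. Like the other lists, this list was chosen with earlier results of these data known. Srd5a1 and Cyp2a5, which are among the 4, are DESeq2 calls, so the count is not independent support. Srd5a1, the reductase that makes dihydrotestosterone, measured 10.7, 10.48 and 8.96 CPM on normal diet and 23.2, 24.7 and 17.3 on high salt. The lowest high salt library was above the highest normal diet library, a difference of 1.11 (0.63 to 1.597, edgeR unadjusted p = 0.00070), and DESeq2 called it with an adjusted p of 0.039. Cyp2a5, a xenobiotic cytochrome P450 with near-identical copies, measured 46.2, 96.2 and 94.5 CPM on normal diet and 383, 127 and 424 on high salt. High salt 2 lay nearest the normal diet, and the difference was 1.98 (0.87 to 3.09, DESeq2 adjusted p = 0.037). Cyp2e1 measured 1224, 879 and 787 CPM and 1523, 1339 and 1407 CPM (0.56, 0.01 to 1.11). Cyp4b1, an androgen-dependent kidney P450, measured 1428 to 1507 and 1716 to 1879 CPM (0.33, -0.13 to 0.78). Prlr, the prolactin receptor, measured 50.8 CPM in high salt 3 and 3.75 to 16.8 in the other 5.

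**Figure D5:**
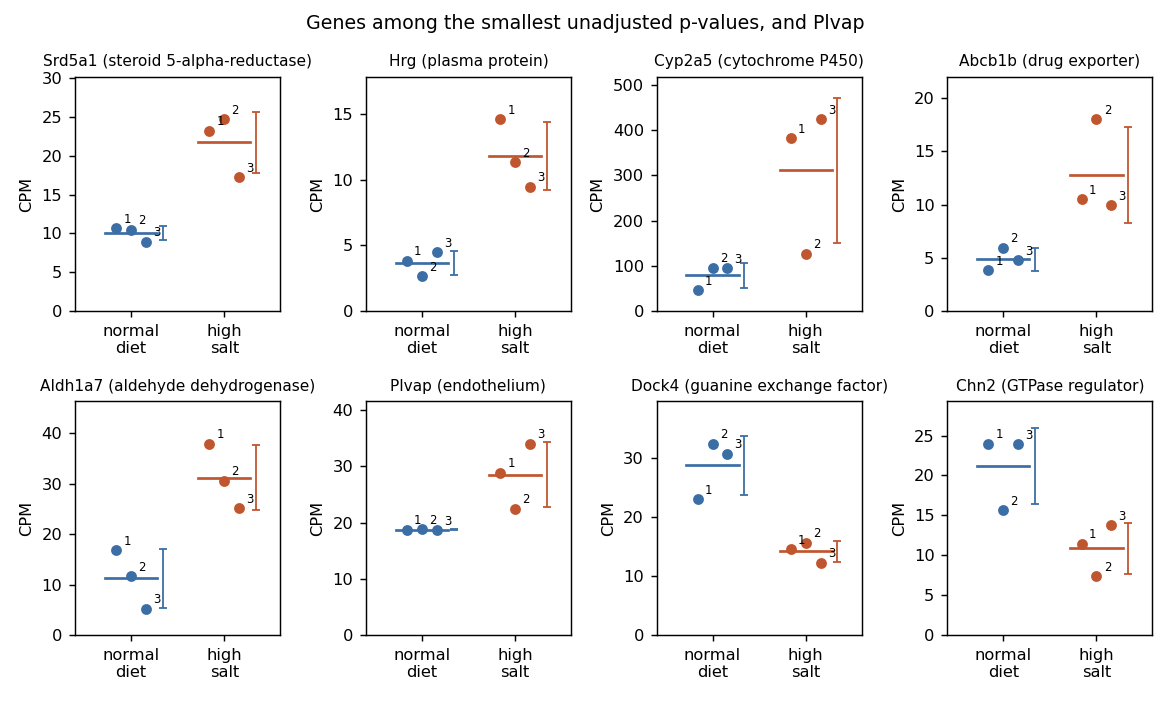
CPM of 7 genes among the smallest unadjusted p-values, and of Plvap, in normal diet (blue) and high salt (red) kidney libraries, with the library number, a line at the diet mean and a bar of 1 SD (n = 3); every y axis starts at 0. In all 8 panels the 3 libraries of one diet lie above the 3 of the other, higher on high salt for Srd5a1, Hrg, Cyp2a5, Abcb1b, Aldh1a7 and Plvap, and lower for Dock4 and Chn2.

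The smallest DESeq2 adjusted p belonged to Hrg of the hepatocyte list, histidine-rich glycoprotein, a heparin-binding plasma protein. It measured 3.85, 2.64 and 4.50 CPM on normal diet and 14.6, 11.3 and 9.46 on high salt. The diets were far apart, with a difference of 1.68 (1.04 to 2.33), a DESeq2 adjusted p of 0.0072 and an edgeR unadjusted p of 0.00029. Abcb1b, a drug efflux pump of the P-glycoprotein family, measured 3.85, 5.97 and 4.79 CPM and 10.495, 18.0 and 9.96 CPM (1.39, 0.70 to 2.09). Aldh1a7, an aldehyde dehydrogenase, measured 16.8, 11.7 and 5.28 CPM and 37.9, 30.6 and 25.1 CPM (1.47, 0.57 to 2.37). Mogat2, a monoacylglycerol acyltransferase, and Htatip2, an oxidoreductase, were apart too, at 1.04 (0.43 to 1.64) and 0.98 (0.47 to 1.48). Each of these 5 kept its sign and an unadjusted p under 0.05 in all 18 alternatives. The alternatives reuse the libraries in which these genes were picked by p, so this is not independent support.

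On the lower side stood 2 regulators of small GTPases. Dock4, a guanine exchange factor, measured 23.0, 32.4 and 30.7 CPM on normal diet and 14.6, 15.7 and 12.3 on high salt (-1.02, -1.50 to -0.54, edgeR unadjusted p = 0.0012). Chn2, a chimaerin that inactivates Rac, measured 24.0, 15.6 and 23.9 CPM and 11.5, 7.44 and 13.8 CPM (-0.96, -1.61 to -0.30). Atp4a, the catalytic subunit of the gastric proton-potassium pump, measured 8.89, 9.96 and 10.1 CPM and 5.27, 6.81 and 4.68 CPM (-0.79, -1.30 to -0.28). For all 3 genes the diets did not overlap, and the unadjusted p was under 0.05 in all 18 alternatives, which again reuse the libraries that picked them.

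The other DESeq2 calls were genes of low counts or predicted genes that may share reads with copies. Higher on high salt were Sprr2a2, a cornified envelope protein, with 0, 5 and 3 counts on normal diet and 57, 26 and 20 on high salt, and Ighv1-7, an immunoglobulin segment, with 0, 1 and 0 counts and 36, 8 and 30 counts. Ucp1, the uncoupling protein of brown fat, had 0 counts in every normal diet library, which allows up to 3 counts in each, and 32, 18 and 3 counts on high salt. Gm13841 was called higher as well, with 703 of its counts in high salt 2. Lower were Serpina3k, a liver-type protease inhibitor, with 10, 115 and 31 counts on normal diet and 7, 2 and 2 on high salt, and Xlr4b, an X-linked lymphocyte-regulated gene, with 17, 20 and 57 counts and 4, 3 and 3 counts. The predicted genes Gm13855 and Gm4322 completed the lower calls, at 123, 157 and 283 counts against 49, 47 and 63, and at 58, 58 and 15 counts against 5, 0 and 4. Of the 13 calls edgeR tested 11, all but Serpina3k and Ucp1, and called none at an adjusted p under 0.05.

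The predicted genes Gm9493 and Gm15590, at 1.30 and 1.40, were among the 10 higher genes with the smallest unadjusted p, and Gm14121, at -0.62, among the 10 lower. The most variable genes of the 6 libraries, whatever the diet, were mostly copies or transcripts of other tissues. Ugt1a5, a glucuronosyltransferase isoform of a shared locus, ran from 0.15 CPM in normal diet 1 to 32.7 CPM in normal diet 3. The pseudogene Ftl2-ps, of the ferritin light chain, measured 138.07 to 171 CPM on normal diet and 2.59, 0.57 and 152 on high salt. Rpl15-ps6, a ribosomal protein pseudogene, stood at 30.7 CPM in normal diet 3 and at 0 to 2.87 CPM in the others. None of these 3 separated the diets.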

How the data were processed

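Kidney RNA was sequenced from SMARTer libraries. Per the file headers, the authors deposited expected counts for each gene, quantified by expectation maximisation in Partek. The submitters' processing notes name STAR 2.5.3a, Partek 7.0, DESeq2 and mm10, without roles. The annotation release is not given in the sources used here. The deposited table lists 20203 genes, each with at least 10 counts in all. Its 9 values of 1000000 or more are rounded in the file, which limits the precision of the most abundant transcripts (Kap, mt-Co1). A second deposited table gives a normalized signal for 24399 genes, from another quantification.

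Expected counts were rounded to whole numbers. The test was edgeR's quasi-likelihood F test (4.0.16, R 4.3.3) after filterByExpr and TMM scaling, on the kidney libraries alone, with diet as the term, Benjamini-Hochberg adjustment over all genes and a threshold of 0.05. CPM use TMM library sizes. The common biological coefficient of variation was 0.30. Fits were tested on simulated counts drawn independently for each library. The simulation held no outlying library and no shared component, so it does not cover the library differences described above. No 2 libraries agreed within sampling noise. Intervals on fitted values are edgeR's; floors of 3 counts cover counting error only. Liver tables were not used here.

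The members and the gene lists were chosen with earlier results of these data known. Named were all calls of edgeR or DESeq2, the 10 smallest unadjusted p in each direction with a mean of 50 counts, chosen genes of each list with its members under an unadjusted p of 0.05 or (mean of 50 counts) with no overlap, and the 10 most variable genes. Alternatives comprised DESeq2 1.42.0, scaling by RLE or upper quartile, limma 3.58.1 (voom with sample weights, and the normalized values with pseudocounts of 1 and 0.1), other filters, no mitochondrial genes, the replicate block, leaving out each library and, chosen after seeing the data, the side of the first component as a term. Promoter sequence came from RefSeq. Results of a few listed genes are not reported here.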

Additional observations from a re-analysis of the deposited data

How the results depend on the processing

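Adjusted calls by edgeR and limma were 0 under every alternative, and DESeq2 gave 13. The smallest adjusted p was close to the threshold in some settings. It was 0.0533 without normal diet 1 (edgeR), 0.0542 with the side of the first component as a term (edgeR) and 0.091 under voom. It was 0.62 without high salt 3 and higher in the other edgeR and limma fits. The 318 genes at an unadjusted p under 0.05 became 4103 under voom with sample weights, 527 with no filter, 604, 559 and 685 on the deposited normalized values (pseudocounts of 1 and 0.1, and 1 with no filter), 896 with the side of the first component as a term, and 211 to 2627 when 1 library was left out, 2627 being without normal diet 1 and 211 without high salt 3. The 1097 genes whose diets did not overlap became 1682, 1682 and 1793 on the normalized values and 1841 to 6084 with 1 library fewer. A gene separates more readily when fewer libraries have to. The 6084 was again without normal diet 1, and the other leave-outs gave 1841 to 2627. The exact permutation p of the genes whose difference changed sign was 0.8 for Agt without normal diet 1 and 1.0 without high salt 1 or 2; for Ace it was 1.0 on the normalized values, 0.8 without normal diet 2 or 3 and 1.0 without high salt 1. With any 1 library left out these p ran from 0.4 to 1.0 for Agt and 0.2 to 1.0 for Ace. What caused these changes between settings was not tested.

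The labels do not say whether a replicate number marks a shared litter or day. Deviations of same-numbered libraries correlated at 0.41 and 0.37 for numbers 1 and 2 and at -0.09 for number 3. Normal diet 1 and 2 each correlated best with the high salt library of their number, and normal diet 3 with high salt 2. These values do not settle whether the numbers mark pairs. With the replicate block 459 genes had an unadjusted p under 0.05 and 0 an adjusted one. Of 141 tested named genes 91 kept their sign in all 18 alternatives, and of 2506 values 146 had the other sign. Of 30 list medians 10 kept their sign, among them the thick ascending limb (-0.29 to -0.01), the distal convoluted tubule (-0.34 to -0.02) and the endothelial list (0.18 to 0.39). Whether replicate spread, with 3 libraries a diet, or depth limits most genes was not tested.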
